A study of Mus musculus with 10 samples.

Results

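The 9 genes described here encode proteins of central myelin and of mature oligodendrocytes. They are Mbp, Mobp, Cnp, Cldn11, Mal, Mag, Mog, Ermn and Opalin, and each was found by its symbol as 1 row among the 52636 genes of the deposited table. The table gives FPKM, fragments scaled to gene length and library size. The length is 1 value per gene, whichever of its transcripts are present, so levels of different genes can be compared only roughly. It comes from a study of spatial learning and memory in mice without the thyrotropin receptor gene Tshr. Hippocampus was taken from C57BL/6 mice at 3 months, with 5 libraries of genotype Tshr-/- and 5 of wild type. The design text calls the 5 of a genotype biological replicates. The labels do not say whether a library is 1 mouse or a pool, which part of Tshr was deleted, whether the wild type were littermates, or whether the mutants were given thyroid hormone.

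Oligodendrocytes wrap axons in sheets of membrane from which most cytoplasm is squeezed out, and this myelin lets impulses travel fast along the axon. Lipids make up most of the sheath, and a small set of proteins holds its layers together and ties it to the axon. In the hippocampus myelin is densest in the fibre tracts at its border. Thyroid hormone is a well known driver of oligodendrocyte maturation, and Mbp is a classic gene of its response in the developing brain. Loss of the thyrotropin receptor removes the main signal for making the hormone. The mutants were compared with wild type to see how the hippocampal transcriptome differs without the receptor.

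The libraries held 23899650 to 33529811 reads, rebuilt from FPKM and gene length. Tshr itself was near the detection limit, with 7 reads summed over Tshr-/- (2 of the 5 libraries had any) and 32 summed over wild type. Its mean was 0.00861 ± 0.0136 (SD, n = 5) against 0.0371 ± 0.0221 FPKM (2-sided exact permutation p = 0.0556). Markers of neighbouring tissue differed between libraries. The thalamic transcription factor Zic1 ranged from 1.49 to 31.1 FPKM, and Ttr of the choroid plexus reached 2189 FPKM in Tshr-/- library 4 against at most 84.1 FPKM in any other. Of all 15471 genes tested, 0.0129% were called, which is 2 genes and no myelin gene.

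None of the 9 myelin genes differed between the genotypes beyond the spread of the libraries. All 9 passed the filter of a mean of at least 0.5 FPKM, 5 of them stood higher and 4 lower in Tshr-/-, and 0 were called by limma at an adjusted p below 0.05, or with limma voom on the rebuilt reads. The 9 together made up 0.433% ± 0.104 (SD, n = 5) of the reads in Tshr-/- and 0.436% ± 0.0972 in wild type. Their median log2 difference was 0.03, beside -0.01 over all genes tested. What the genes had in common was a large swing between libraries of the same genotype, which all 9 followed.

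The levels of the 9 genes spanned a wide range. Mbp encodes myelin basic protein, which glues the inner faces of the membrane together, and averaged 306 FPKM over the 10 libraries. Mobp, another basic protein of compact myelin, averaged 115 FPKM. Cnp, an enzyme of the cytoplasmic channels of the sheath, and Cldn11, the claudin that seals the layers with tight junctions, averaged 88.9 and 87.4 FPKM. Mal, a lipid raft protein of myelin, followed with 69.3 FPKM, and Mag, the glycoprotein that faces the axon, with 41.0 FPKM. Mog, an immunoglobulin-like protein of the outermost layer, averaged 28.9 FPKM. Ermn, a cytoskeletal protein that appears late in myelination, and Opalin, a membrane glycoprotein of mature oligodendrocytes, averaged 12.01 and 11.9 FPKM. The median tested gene stood at 5.05 FPKM.

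This order was the same in each library but for 2 neighbouring pairs. Mbp was above Mobp in 10 of 10 libraries, by 2.31 to 3.01 times, with 1 gene length used for each (8403 and 6849 bases). Cnp exceeded Cldn11 in 8 of 10 and Ermn exceeded Opalin in 6 of 10, so that neither pair can be ordered. Genes known from the myelin of peripheral nerves were mostly low. Pmp2 was listed at 0 in every library. Prx lay between 0.330 and 0.534 FPKM. Pmp22, which cells other than Schwann cells also express, had 7.52 ± 2.02 FPKM in Tshr-/- and 6.67 ± 1.38 in wild type.

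Stretches just upstream of 4 of the genes are shown because they hold sequence cores of factors that act in oligodendrocytes. All 4 are written 5′ to 3′ on the strand of the gene, from RefSeq's promoter table on GRCm38.p6, with the matched core in capitals. Those of Cnp and Mog end at the base before the gene's start in the deposited table, and that of Mag ends 49 bases before it, at a start that RefSeq places further upstream. These 3 carry the core CTGGCAC or CTGGTAC of MYRF, the factor that switches on myelin genes, which Mog holds on the opposite strand. For Mobp the capitals are the SOX core ACAAAG or ACAATG read on the opposite strand, and the stretch ends 75 bases before the gene.
Mag, chr7:30914923-30915062, minus strand: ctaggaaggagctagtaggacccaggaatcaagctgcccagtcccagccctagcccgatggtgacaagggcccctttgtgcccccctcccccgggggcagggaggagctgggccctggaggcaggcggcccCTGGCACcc
Cnp, chr11:100574764-100574903, plus strand: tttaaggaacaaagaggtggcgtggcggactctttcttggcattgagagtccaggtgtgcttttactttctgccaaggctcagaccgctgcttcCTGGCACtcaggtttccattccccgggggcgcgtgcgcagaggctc
Mog, chr17:37023399-37023538, minus strand: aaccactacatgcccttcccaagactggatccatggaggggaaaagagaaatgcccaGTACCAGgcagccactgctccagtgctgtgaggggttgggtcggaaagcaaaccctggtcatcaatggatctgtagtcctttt
Mobp, chr9:120149492-120149631, plus strand: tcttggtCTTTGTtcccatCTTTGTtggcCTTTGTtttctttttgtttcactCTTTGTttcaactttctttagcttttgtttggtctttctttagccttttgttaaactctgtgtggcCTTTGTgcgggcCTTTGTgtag

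The table matched 8 of the 9 genes, all but Mbp, with 10 promoter windows of 300 bases in all, and both strands were searched. Nothing is therefore said here of the promoter of Mbp. Matches are counted per gene for the 8 and per window for all promoters, so these shares are not quite alike. The MYRF core was in a window of 4 of the 8 genes (Mag, Cnp, Mog and Opalin) and in 7.10% of all 32851 windows. The SOX core, which SOX10 shares with its relatives, was in those of 5 (Ermn, Mag, Mobp, Cnp and Opalin) and in 28.6% of all windows. Mobp alone held 6 matches. The E-box CAGCTG, a form bound by OLIG2, was found for Opalin and in 16.3% of all windows. The half-site AGGTCA of nuclear receptors, thyroid hormone receptors among them, matched none of the 8 genes and 16.3% of all windows. Cores can overlap one another, since CTG ends the E-box and opens the MYRF core. A match describes the letters of a window and is not a measured binding site.

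Mbp (chromosome 18, 82475146 to 82585637 in mm10, plus strand) is the most abundant of the 9. Its FPKM in Tshr-/- libraries 1 to 5 was 305, 334, 202, 353 and 250, and in wild-type libraries 1 to 5 it was 307, 402, 370, 228 and 313. The 2 ranges overlapped, with Tshr-/- library 3 and wild-type library 4 the lowest of their genotypes. The means were 289 ± 62.1 in Tshr-/- and 324 ± 66.7 in wild type (SD, n = 5). The difference on the log2(FPKM + 0.1) scale was -0.17 ± 0.18 (SE), with a 95% interval from -0.57 to 0.23 and a limma adjusted p of 0.722. The row sums all transcripts of the locus, among them the golli forms that start far upstream and are not confined to oligodendrocytes.

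Mobp (chromosome 9, 120149707 to 120181484, plus strand) had nearly the same mean in both genotypes. Libraries 1 to 5 gave 132, 142, 73.5, 133 and 93.9 FPKM in Tshr-/- and 102, 158, 129, 79.2 and 109 in wild type. Tshr-/- library 3 and wild-type library 4 were again lowest, and the ranges overlapped almost wholly. The log2 difference was -0.01 ± 0.22 (SE), with a 95% interval from -0.49 to 0.46 (limma adjusted p = 0.987).

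Cnp (chromosome 11, 100574904 to 100591729, plus strand) measured 99.0, 105, 63.5, 109 and 86.3 FPKM in Tshr-/- libraries 1 to 5. In wild-type libraries 1 to 5 it measured 76.2, 110, 96.6, 61.4 and 81.8 FPKM. The ranges were nearly the same, and the log2 difference was 0.12 ± 0.18 (SE, limma adjusted p = 0.804). The library kit named in the labels does not mark the strand. Reads of Cnp and of the oppositely transcribed Dnajc7, where these genes overlap, are therefore not separable. Dnajc7 lay between 22.0 and 23.2 FPKM in all 10 libraries.

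Among the proteins of the junctions and membrane, Cldn11 (chromosome 3, 31149920 to 31164324) had 88.2 ± 17.3 FPKM in Tshr-/- and 86.6 ± 20.4 in wild type. Its extremes were 60.3 and 104 FPKM among the mutants and 59.1 and 108 among wild type, nearly the same range. Mal (chromosome 2, 127633226 to 127656695) had 71.4 ± 17.1 against 67.2 ± 16.2 FPKM. Mag (chromosome 7, 30899176 to 30914873) had 40.9 ± 9.13 against 41.0 ± 9.41 FPKM. The log2 differences of these 3 genes were 0.03, 0.08 and -0.01, with limma adjusted p values of 0.958, 0.886 and 0.991.

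Mog (chromosome 17, 37010743 to 37023398, minus strand) had the smallest p-value of the 9. Libraries 1 to 5 gave 33.2, 37.0, 21.1, 41.0 and 24.8 FPKM in Tshr-/- and 22.4, 34.9, 27.0, 19.2 and 28.4 in wild type. Tshr-/- libraries 2 and 4 lay above each wild-type library, while Tshr-/- library 3 lay below 4 of the 5. The means were 31.4 ± 8.31 and 26.4 ± 5.99 FPKM. The log2 difference of 0.24 ± 0.20 (SE) had an unadjusted p of 0.266 and a limma adjusted p of 0.645.

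Ermn (chromosome 2, 58045113 to 58052864, minus strand) had the widest spread. Tshr-/- libraries 1 to 5 gave 13.9, 14.3, 7.28, 13.4 and 7.82 FPKM, and wild-type libraries 1 to 5 gave 9.90, 17.4, 14.3, 9.22 and 12.6. Tshr-/- libraries 3 and 5 were below each wild-type library and the other 3 were within the wild-type range. The log2 difference was -0.18 ± 0.24 (SE, limma adjusted p = 0.780).

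Opalin (chromosome 19, 41062474 to 41077113, minus strand) gave 12.1, 12.05, 8.85, 18.3 and 10.04 FPKM in Tshr-/- libraries 1 to 5. Wild-type libraries 1 to 5 gave 10.3, 14.9, 13.3, 9.14 and 9.88 FPKM. Tshr-/- library 4 stood above all others and the remaining 9 lay between 8.85 and 14.9 FPKM. The log2 difference was 0.07 ± 0.19 (SE, limma adjusted p = 0.904).

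**Figure D1:**
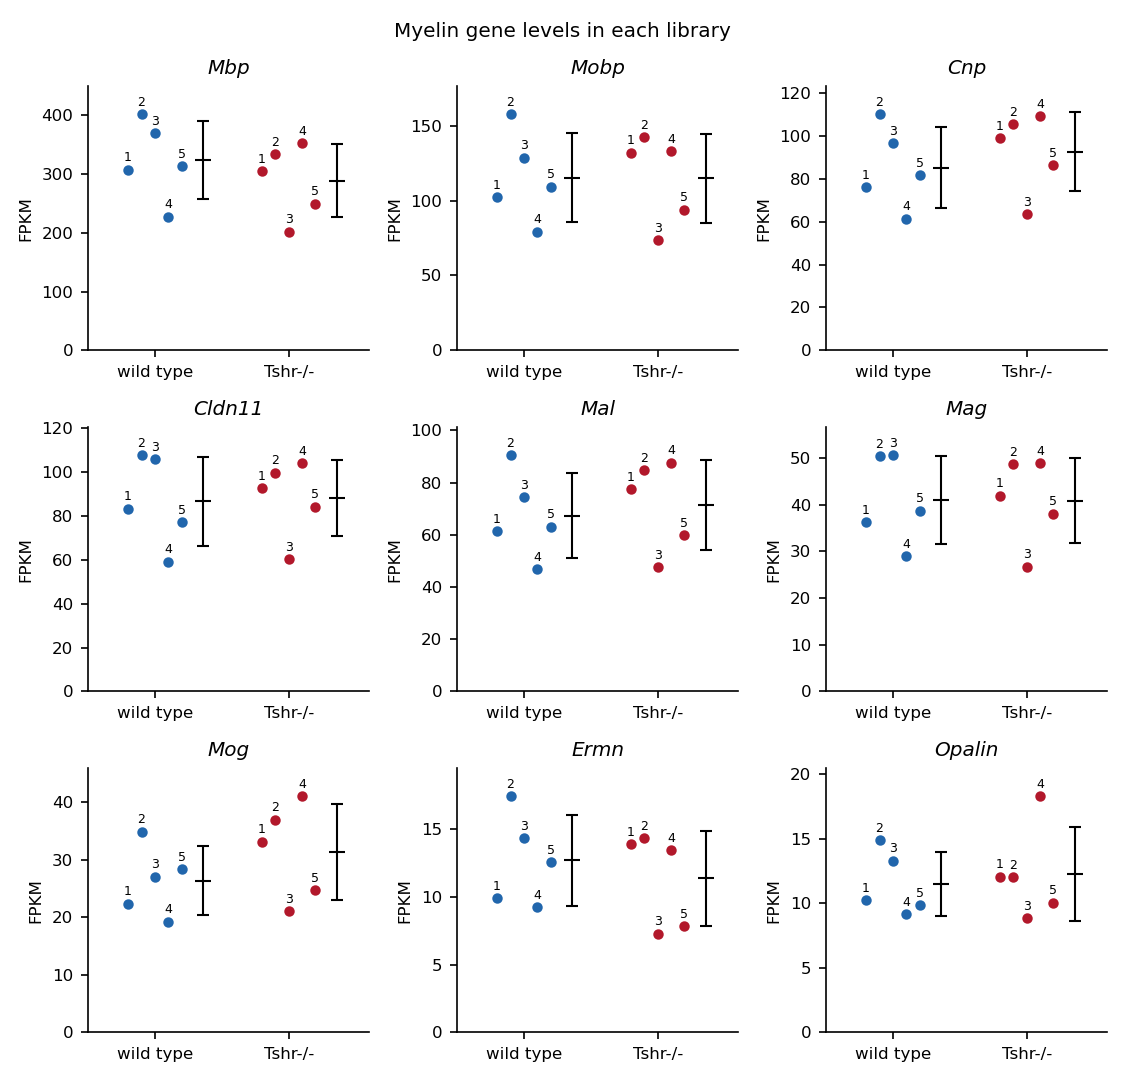
FPKM of each of the 9 myelin genes, with 1 point per library, its library number above it, and the mean and SD (n = 5) of each genotype as a bar at the right. Tshr-/- library 3 or wild-type library 4 is the lowest of the 10 for each gene, and the genotypes overlap in all 9.

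The intervals show how precise the estimates from these libraries were. Of the 9 genes, 0 had an unadjusted limma p below 0.05, against 13.0% of all genes tested, and 0 had ranges that did not overlap between the genotypes, against 2.68% of all genes. The 95% intervals, as folds of the wild-type level, ran from 0.676 to 1.17 for Mbp, from 0.830 to 1.43 for Cnp and from 0.866 to 1.605 for Mog. For Ermn, the least precise, the interval ran from 0.615 to 1.27. With 5 libraries per genotype, differences anywhere within these bounds are compatible with the data, which therefore do not show that the levels are alike. The bounds are not limits of detection. The depth was not the limit for the abundant genes, since Mbp had between 44734 and 113480 reads per library and even Opalin had 417 to 921.

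**Figure D2:**
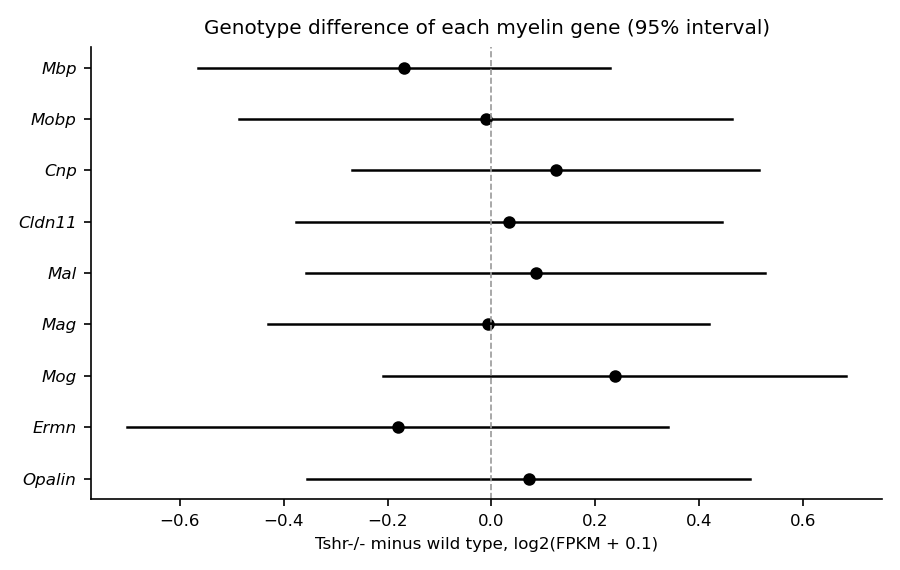
Difference of each gene between Tshr-/- and wild type on the log2(FPKM + 0.1) scale (horizontal axis), with the limma estimate as a point and its 95% interval as a line. All 9 intervals include 0, and the estimates run from -0.18 for Ermn to 0.24 for Mog.

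The spread within a genotype was the main feature of these genes. Its SD on the log2 scale was between 0.32 and 0.43 for the 9, beside a median of 0.16 over all genes tested. Each of the 9 varied more than at least 81.6% of the tested genes. Tshr-/- library 3 was the lowest of all 10 libraries for 5 genes and wild-type library 4 for the other 4. At the upper end, wild-type library 2 was highest for 6 genes and Tshr-/- library 4 for 2, while Mag was highest in wild-type library 3. The highest library exceeded the lowest by 1.79 times for Cnp and by 2.39 times for Ermn, the extremes of the 9. The reads of the 9 genes made up 0.289% of Tshr-/- library 3 and 0.311% of wild-type library 4, and 0.568% of wild-type library 2. In whole tissue, fewer oligodendrocytes and less myelin RNA per cell cannot be told apart.

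The 9 genes went up and down together from library to library. Over the 10 libraries, the 36 pairs of genes had Pearson correlations of their log2 values from 0.75 to 0.98, with a median of 0.90. The pairs Opalin and Ermn, Mbp and Mog, and Mog and Ermn were the 3 below 0.8. Mal followed the mean of the 9 standardised genes most closely (0.99), and Opalin least (0.90). All genes of a library come from the same dissection, so these values describe shared variation among libraries. Its cause was not tested.

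Means of marker lists of neurons, astrocytes, microglia and endothelium had narrower ranges than the mean of the 9 genes. Centred on the 10 libraries, the mean of the 9 genes ran from -0.52 in Tshr-/- library 3 to 0.40 in wild-type library 2 on the log2 scale. A list of 8 neuron markers ran from -0.14 to 0.06 and one of 8 astrocyte markers from -0.15 to 0.16. The 6 microglia markers ran from -0.12 to 0.06. The 5 endothelium markers had the widest range of these lists, from -0.25 in Tshr-/- library 1 to 0.24 in wild-type library 2. A list mean can hide the range of its single genes. Over the 10 libraries, Cldn5 of the endothelium list ran from 21.04 to 51.5 FPKM, a wider fold than for any of the 9. Aqp4 of the astrocyte list (14.9 to 28.2 FPKM) and Kdr of the endothelium list (1.34 to 2.67 FPKM) had wider folds than Cnp. All other genes of these lists had narrower folds than each of the 9. Thalamus and habenula markers moved more than the myelin genes. They were 1.47 and 2.22 above their mean in Tshr-/- libraries 1 and 2, and 0.70 and 1.32 above it in wild-type libraries 2 and 5. All 15 of these markers were measured, all 15 stood higher in Tshr-/-, and 0 were called. Tshr-/- library 4 and wild-type library 3, both rich in myelin transcripts, were low in them, at -0.57 and -1.05. Over all 10 libraries, the correlations of the 15 markers with the mean of the 9 ran from 0.32 to 0.63, with a median of 0.48. The median log2 difference of the thalamic list was 0.61, and 0.01 without Tshr-/- library 2. The choroid plexus list was 4.13 above its mean in Tshr-/- library 4 and at most 0.46 above it elsewhere. Its median difference was 1.19, and -0.36 without that library. In the neuron, astrocyte, microglia and endothelium lists 0 genes were called, with median differences of -0.08, -0.00201, -0.05 and -0.10. The part of neighbouring tissue in the myelin values was not tested. With the thalamic list as a covariate, 0 of the 9 genes were called, and the differences of Mbp and Mog were -0.25 and 0.12.

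**Figure D3:**
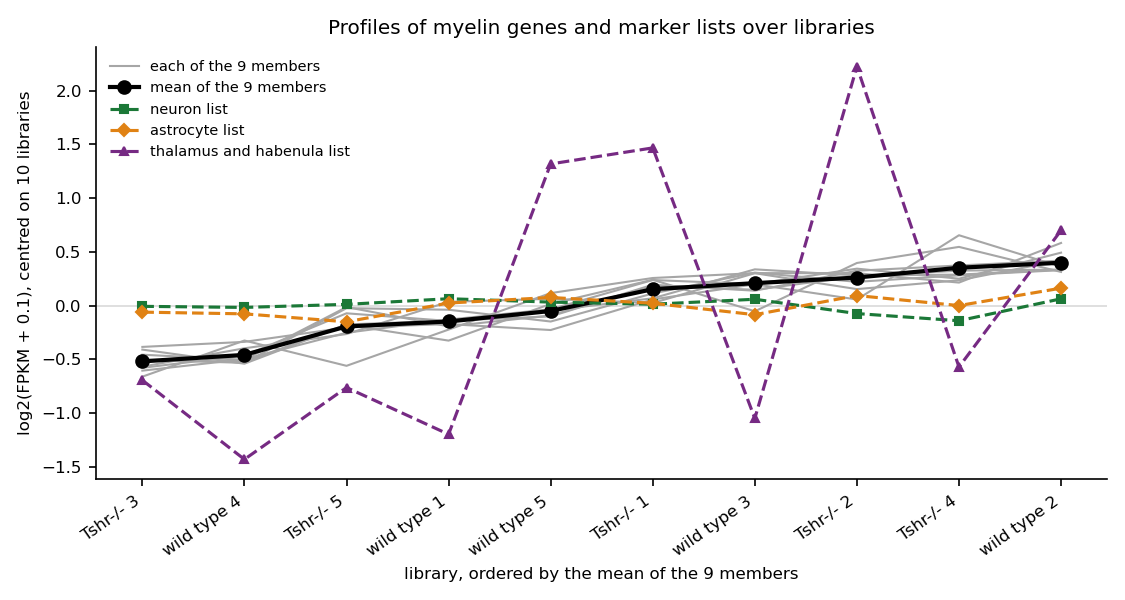
Level of each of the 9 myelin genes (grey), their mean (black) and 3 marker lists on the log2(FPKM + 0.1) scale, centred on the 10 libraries, which are ordered by the myelin mean. The grey lines stay close together from -0.52 (mean, Tshr-/- library 3) to 0.40 (wild-type library 2), and both genotypes are spread along the whole order.

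Among the genes outside the 9 whose levels followed their mean most closely were Fa2h, Tmem88b, Gab1, Cyp2j12, Galnt6, March8 and Bcas1. Their Pearson correlations over the 10 libraries ran from 0.98 for Fa2h to 0.97 for Bcas1, where the median of all other tested genes was -0.02. Fa2h makes the hydroxylated fatty acids of myelin lipids and had 14.6 ± 3.10 FPKM in Tshr-/- and 15.2 ± 3.38 in wild type. Gab1 is an adaptor of growth factor receptors. None of these genes was called, with limma adjusted p values of 0.842 or more.

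Genes that make myelin lipids or mark the mature cell also gave no call. An unadjusted limma p below 0.05 was found for 0 of them, against 13.0% of all genes tested. Of 7 enzymes of myelin lipids, 5 stood higher and 2 lower, 0 were called, and the median log2 difference was 0.05. Cers2, a ceramide synthase for very long chains, had 12.2 ± 1.88 FPKM in Tshr-/- and 11.2 ± 1.18 in wild type. Elovl7, a fatty acid elongase, had 3.25 ± 1.43 against 2.74 ± 0.575. Ugt8a, which makes galactosylceramide, differed by 0.15 ± 0.23 (SE) on the log2 scale. Gal3st1, which adds sulfate to that lipid, had 4.73 ± 0.420 against 5.16 ± 1.29. Of 32 other genes of mature oligodendrocytes, 11 stood higher and 21 lower, and 0 were called, with a median of -0.04. Those with the smallest p included Ninj2 (2.09 ± 0.596 against 1.52 ± 0.294 FPKM), the actin-severing protein Gsn (18.4 ± 3.06 against 15.5 ± 2.81) and the carbonic anhydrase Car2 (59.0 ± 10.5 against 67.5 ± 9.51). The correlation with the mean of the 9 had a median of 0.89 over the lipid enzymes and 0.87 over the other mature genes.

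Transcription factors of the lineage were tied less closely to the 9, with a median correlation of 0.57. Of 10 measured, 9 stood lower in Tshr-/- and 1 higher, with a median log2 difference of -0.18. By limma 0 were called and 2 of the 10 had an unadjusted p below 0.05, against 13.0% of all genes tested. Sox10, which holds oligodendrocyte identity, had 23.7 ± 4.32 FPKM in Tshr-/- and 31.2 ± 5.62 in wild type, a log2 difference of -0.39 ± 0.15 (SE, unadjusted p = 0.0234, limma adjusted p = 0.312). St18 had 3.70 ± 0.890 against 4.64 ± 0.425 (limma adjusted p = 0.380). Olig1 had 60.2 ± 4.39 against 68.6 ± 8.996, and Zfp536 had 2.86 ± 0.369 against 3.23 ± 0.206. The ranges of the genotypes overlapped for all 10.

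Precursor and newly formed oligodendrocytes gave 8 genes higher and 8 lower of 16, with a median log2 difference of -0.00191. By limma 0 were called and 3 of the 16 had an unadjusted p below 0.05, against 13.0% of all genes tested. Gpr17, a receptor of cells about to mature, had 8.48 ± 0.384 FPKM in Tshr-/- and 10.2 ± 0.852 in wild type (log2 difference -0.26, unadjusted p = 0.00205, limma adjusted p = 0.179). C1ql1 had 6.05 ± 0.707 against 7.68 ± 0.936, and Tnr, a matrix protein, 18.7 ± 0.685 against 20.3 ± 0.783. Pdgfra, the growth factor receptor of precursors, had 5.46 ± 0.545 against 4.91 ± 0.325 FPKM.

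Axonal and paranodal partners of myelin gave 3 higher and 5 lower of 8, with a median log2 difference of -0.06. None was called by limma, and 2 of the 8 had an unadjusted p below 0.05, against 13.0% of all genes tested. Cntnap1, which anchors the sheath beside the node, had 42.1 ± 1.97 FPKM in Tshr-/- and 48.5 ± 2.42 in wild type (limma adjusted p = 0.179). It was the only one of the 8 whose ranges did not overlap, against 2.68% of all genes tested. Erbb3, the receptor for neuregulin, had 1.88 ± 0.541 against 2.63 ± 0.546. Nrg1, a neuregulin itself, had 0.662 ± 0.260 against 0.453 ± 0.176, and Cntn1, an adhesion protein of the axon, 45.0 ± 2.51 against 42.7 ± 2.51.

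Genes by which thyroid hormone action in brain is often read gave 1 higher and 5 lower of 6, with a median log2 difference of -0.20. The direction in which each gene responds to the hormone was not taken into account, so these values do not measure hormone action. None was called by limma, and 1 of the 6 (Dio2) had an unadjusted p below 0.05, against 13.0% of all genes tested. Klf9 had 62.4 ± 6.12 FPKM in Tshr-/- and 63.2 ± 6.27 in wild type, and Hr 3.68 ± 0.919 against 3.31 ± 0.645. Dio2, which activates the hormone, had 6.46 ± 0.874 against 7.65 ± 0.187 (limma adjusted p = 0.278). Nrgn had 1100.3 ± 257 against 1340 ± 163, Thrsp 10.4 ± 1.69 against 11.6 ± 1.41, and Dio3 0.869 ± 0.425 against 1.11 ± 0.427. The correlation of these 6 genes with the mean of the 9 had a median of -0.07.

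Because all 9 genes share the swing between libraries, each was also expressed relative to the mean log2 level of the other 8 in the same library. This removes what the genes have in common, and it is a description that was chosen after the values were seen, with no test. On this scale the highest of the mutant libraries lay below the lowest of the wild type for Mbp. Centred on the 10 libraries, its relative level was -0.14, -0.12, -0.06, -0.13 and -0.08 in Tshr-/- libraries 1 to 5. In wild-type libraries 1 to 5 it was 0.21, 0.03, 0.10, 0.07 and 0.13. The difference of means was -0.21, where Mbp on its own differed by -0.17 with overlapping ranges.

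The ratio of Mbp to Cnp shows this in FPKM. It was 3.08, 3.17, 3.19, 3.23 and 2.89 in Tshr-/- libraries 1 to 5 and 4.03, 3.65, 3.83, 3.71 and 3.83 in wild-type libraries 1 to 5. The means were 3.11 ± 0.135 and 3.81 ± 0.147 (SD, n = 5), with a gap between the ranges. Mbp over Mog was 9.30 ± 0.561 in Tshr-/- and 12.4 ± 1.26 in wild type, and Mbp over Mal 4.06 ± 0.136 and 4.85 ± 0.235. Mbp over Cldn11 was 3.27 ± 0.174 and 3.76 ± 0.210. The ranges of these 4 ratios did not overlap, while those of Mbp to Mag, Mobp, Opalin and Ermn did. All 8 ratios share Mbp, so they are not separate observations. How often ratios of other gene pairs have separate ranges was not computed. Mbp over Ermn was even slightly higher in Tshr-/-, at 26.3 ± 3.90 against 25.9 ± 3.02.

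Among the others, Mog stood higher against the remaining 8 by 0.24, with ranges that overlapped through wild-type library 5. Cnp stood higher by 0.12 and its ranges did not overlap, but they did when Mbp was left out of the reference (difference 0.09). So 2 of the 9 genes had separate ranges on this scale. When each of the other 15462 tested genes was set against the mean of the 9, 0.213% had separate ranges. That share is not a like background for the 9. Most of those genes do not follow the 9 (median correlation -0.02), so the reference adds its swing to them. On plain FPKM, 2.68% of all genes tested had separate ranges. Set against the mean of the 9, 1 of the 32 other mature oligodendrocyte genes had separate ranges (Ninj2), or 3.12%. On plain FPKM 0 of these 32 had. The reference matters: against the mean of those 32 genes, Mbp was lower by 0.15 with overlapping ranges, whereas Mog was higher by 0.26 with separate ranges. The direction of Mbp and of Mog was the same for both references.

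**Figure D4:**
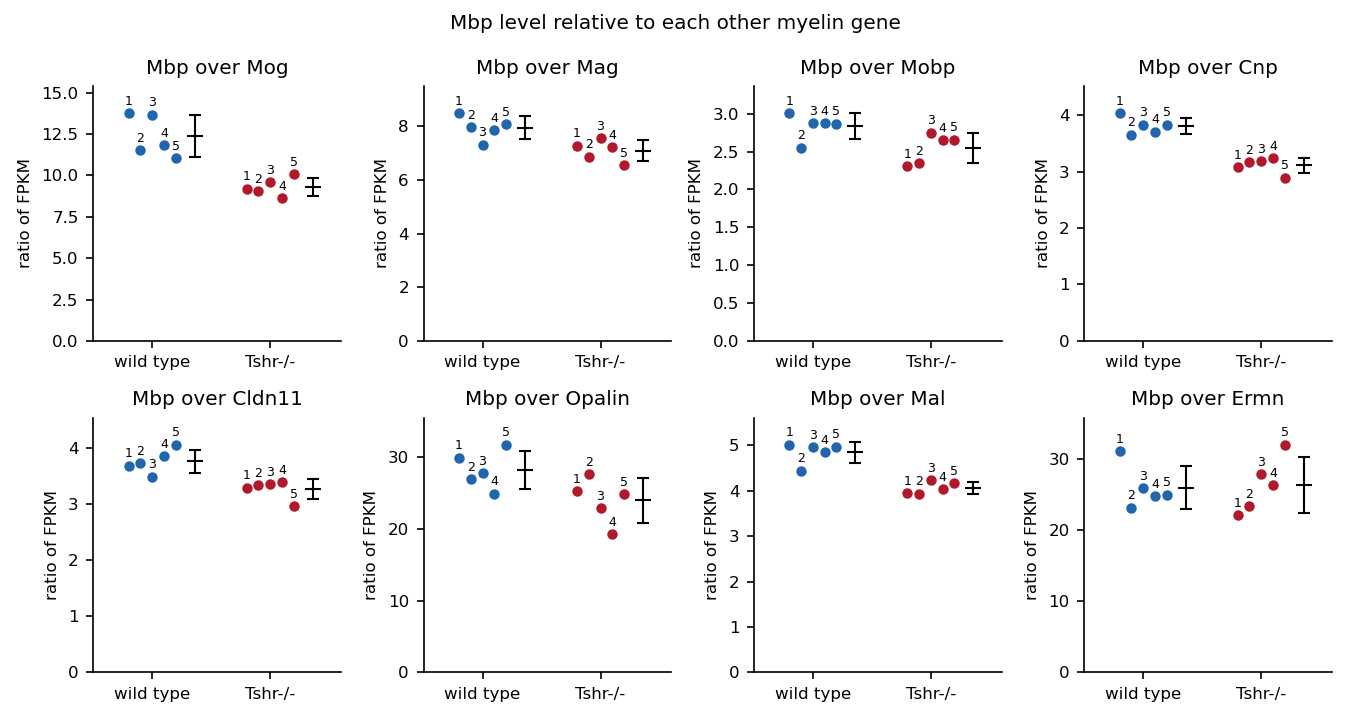
Ratio of the FPKM of Mbp to that of each of the other 8 genes (vertical axes from 0), with 1 point per library, its number above it, and the mean and SD (n = 5) at the right. The points of the genotypes are apart for Cnp, Cldn11, Mal and Mog, and overlap for Mag, Mobp, Opalin and Ermn.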

How the data were processed

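Hippocampal mRNA was sequenced in 10 libraries. The submitters' processing notes name HISAT2 2.0.5, featureCounts 1.5.0-p3 and the build mm10. The authors deposited FPKM per gene, with an annotation release that the labels do not state. Multiplying FPKM by gene length gave whole multiples of a library's smallest step for 100% of values above 0 (tolerance 0.01), and these multiples were taken as reads.

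Genes with a mean of at least 0.5 FPKM were tested on log2(FPKM + 0.1) with limma 3.58.1 in R 4.3.3 (genotype model, mean-variance trend), with Benjamini-Hochberg adjustment over all 15471 genes and calls below 0.05. Fold changes on that scale understate the change of low genes. Relative levels, correlations and motif counts were computed in Python 3.11.15 with no test.

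The members and lists were chosen with earlier results of these data known. Named are all 9 genes, Tshr, up to 4 genes per oligodendrocyte, axon or thyroid hormone list with the smallest p, Klf9, Hr, Zic1, Ttr, and the 8 genes most like the members. Genes of the other cell type lists are given as list values, apart from Cldn5, Aqp4 and Kdr. Any other gene was chosen after its values were seen. Some genes that this rule names are not reported here.

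Same-numbered libraries were checked for pairing by correlating their deviations from the genotype means. Alternatives were pseudocounts, filters, scaling, no trend, limma voom, a replicate block, a thalamic covariate, and left-out libraries.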

Additional observations from a re-analysis of the deposited data

How the results depend on the processing

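Under 22 alternatives none of the 9 genes was called (198 values, smallest limma adjusted p 0.392), and the median of the 9 moved between -0.0954 and 0.164. Mbp and Ermn stayed lower and Mog and Cnp higher in all 22, but their sizes moved by over 1.5 times with 1 library left out. Without Tshr-/- library 3, Mbp was at -0.0477, Ermn at -0.0377, Cnp at 0.253 and Mog at 0.369. Without wild-type library 4 they were at -0.289, -0.284, 0.0126 and 0.131. Mog was lowest with the thalamic covariate (0.124) and, with 1 library left out, without Tshr-/- library 4 (0.130). The signs of the 5 genes nearest to 0 were not stable. Mag and Mobp turned positive with quantile normalization (0.0741 and 0.0819), with limma voom (0.00641 and 0.00257) and without both libraries lowest in myelin genes (0.0207 and 0.0127, an alternative chosen after seeing the data). With the thalamic covariate Cldn11 and Mal turned negative (-0.0287 and -0.0121). With 1 library left out, Mag ran from -0.123 to 0.138, Mobp from -0.137 to 0.139, Cldn11 from -0.0954 to 0.164, Opalin from -0.0831 to 0.177 and Mal from -0.0362 to 0.221. Mbp relative to the other 8 stayed between -0.235 and -0.157, the latter with quantile normalization.

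The number of all genes called was 2. It was 14 with a pseudocount of 0.01, 4 with no filter, 13 with a mean of at least 1 FPKM, 4 with quantile normalization, 1 with no trend, 6 with limma voom, 14 with the thalamic covariate, 0 without both libraries lowest in myelin genes, and from 0 to 9 with 1 library left out. The cause was not tested. The Tshr difference of -0.0285 FPKM ran from -0.0345 to -0.0230 with 1 library left out, and its exact permutation p was 0.0317 without Tshr-/- library 4, wild-type library 4 or wild-type library 5. Same-numbered libraries correlated from -0.07 to 0.30, above 0.1 in 2 of 5 pairs. So few pairs cannot decide whether the number marks a pairing, and the main fit did not use it. With a replicate block the difference of Mbp was -0.169 (limma adjusted p = 0.729) and 0 of the 9 genes were called.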
